A study of Mus musculus with 3 samples.

Results

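The genes described here are 35 genes of glycolysis and of the transcriptional response to low oxygen, out of 32245 gene symbols in the count tables. They were chosen by name, and they comprised 16 glycolytic enzymes, 3 switches of glycolytic flux, 4 transporters of glucose or lactate, 11 targets of the hypoxia response and Hif1a itself. Each gene was followed in the visceral endoderm (VE) and epiblast (Epi) cells of 3 single-cell libraries, made from mouse stem cell aggregates that hold both tissues or mainly one of them. They were compared between the lineages, between aggregates with and without a partner tissue, and from cell to cell.

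All aggregates came from mouse embryonic stem cells in which doxycycline turns on GATA4 fused to mCherry (Tet::GATA4-mCherry, called iGATA, on an E14tg2a background), whose product drives the cells towards primitive endoderm, from which the VE arises. Labels name clone C6 for BELAs and VE cysts and no clone for Epi cysts. BELAs are bilayered aggregates with VE outside and Epi inside around a lumen, formed after 8 h of doxycycline (0.5 µg/ml) in 2i and LIF, 16 h in N2B27 medium and 3 days after reseeding. VE cysts received the same pulse, doxycycline for another 16 h together with FGF4 (10 ng/ml) and heparin (1 µg/ml), and FGF4 with heparin over the following 3 days, and they were picked by hand to avoid Epi cores. Epi cysts grew without doxycycline from single cells in matrigel, for 1 day in 2i and LIF and 3 days in N2B27, and were recovered from the gel on ice. The type of aggregate, its medium, its matrix and its length of induction cannot be told apart in these libraries.

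With 1 library per type of aggregate there were no replicates, so no test was made and differences between libraries have no replicate check. Cells with at least 4000 detected genes and at most 10% mitochondrial UMIs (unique molecular identifiers, one per captured mRNA molecule) were kept, which left 1410 of 2220 barcodes in BELAs, 657 of 1076 in Epi cysts and 625 of 881 in VE cysts. A cell was called VE where its summed UMIs of Gata6, Sox17, Dab2 and Cubn exceeded those of Pou5f1, Sox2, Nanog and Fgf4, and otherwise Epi. This gave 542 VE and 868 Epi cells in BELAs, 577 VE and 48 Epi cells in VE cysts and 656 Epi cells in Epi cysts, with median depths between 56914 and 90251 UMIs per cell. The kept cells of different libraries shared 0 barcodes. Levels are in CPM, the usual scaling of the UMIs of a gene to the total UMIs of its cell group, with exact 95% Poisson intervals that cover counting error only. UMIs of a 3′ assay are not scaled to gene length, so levels of different genes are compared as UMIs and not as molecules per length.

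Lineage genes that the calls did not use mostly followed the calls. All 7 further VE genes were at least 2-fold higher in VE than in Epi cells of BELAs, among them Foxa2 (51.7 against 0.971 CPM) and Sox7 (44.2 against 0.527 CPM). Of 6 further Epi genes 4 were at least 2-fold lower in the VE cells, with Tdgf1 at 5.26 against 102 CPM, but Utf1 and Dnmt3b still stood at 246 and 335 CPM in these VE cells. RNA of the other lineage was present in each group. The Epi markers of the calling rule stood in VE cells of BELAs at 3.18% to 7.32% of their level in Epi cells of the same library. The rule itself keeps these shares low. Epi genes outside the rule that were lower in VE cells stood at 5.17% (Tdgf1) to 52.8% (L1td1). The shares for members that were lower in these VE cells began at 11.7%, for Ndufa4l2. Marker lists of other tissues had summed levels of 8.28 to 18.01 CPM for 7 trophoblast genes, 3.69 to 36.7 CPM for 7 genes of blood and endothelium and 1.17 to 7.70 CPM for 5 fibroblast genes, though Runx1 of the blood list was higher in VE than in Epi cells of BELAs (25.3 against 3.87 CPM). The 4 neural genes reached 25.8 CPM in Epi cells of BELAs and 40.7 CPM in Epi cysts, and at most 2.82 CPM in VE cells.

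As background, glycolysis splits glucose into pyruvate in a chain of cytosolic enzymes, most of which are encoded by several isoform genes with different tissue patterns, and lactate dehydrogenase returns pyruvate to lactate for export. When oxygen falls, the prolyl hydroxylases encoded by Egln genes no longer mark the Hif1a protein for destruction, and it then raises transcription of glycolytic enzymes, glucose and lactate transporters and a set of other genes through short DNA elements with a CGTG core. The amount of Hif1a protein is set mainly after transcription, so its mRNA does not measure its activity.

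The core of this element was looked for in RefSeq promoters of the mouse build GRCm38.p6, each from 250 bases before to 50 bases after a transcript start. The motif letters were ACGTG and GCGTG on both strands, where a palindromic CACGTG counts on each strand. Of the 32 members with a promoter in the table, 30 held a match (93.8%), and Gpi1 and Tpi1 held none. The share was 43.8% over all 32851 promoters of that length and 70.8% over the 7719 expressed genes with a promoter, and these shares were not matched for base composition or for the number of promoters per gene. No promoters were printed for Slc2a3, Ndrg1 and Ndufa4l2. The 4 sequences below belong to members that differed at least 2-fold between BELAs and cysts in the comparisons that follow and that have a single promoter in the table. They lie at chr12:54203825-54204124 on the minus strand for Egln3, chr8:124949205-124949504 on the minus strand for Egln1, chr13:6648722-6649021 on the minus strand for Pfkp and chr11:120948817-120949116 on the plus strand for Slc16a3. They are written 5′ to 3′ in the direction of transcription, and capitals mark the matches.
Egln3: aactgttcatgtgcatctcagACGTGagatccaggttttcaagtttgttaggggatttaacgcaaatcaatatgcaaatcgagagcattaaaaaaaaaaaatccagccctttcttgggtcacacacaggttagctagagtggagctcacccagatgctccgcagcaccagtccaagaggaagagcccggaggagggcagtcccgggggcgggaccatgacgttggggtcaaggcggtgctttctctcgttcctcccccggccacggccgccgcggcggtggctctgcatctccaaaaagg
Egln1: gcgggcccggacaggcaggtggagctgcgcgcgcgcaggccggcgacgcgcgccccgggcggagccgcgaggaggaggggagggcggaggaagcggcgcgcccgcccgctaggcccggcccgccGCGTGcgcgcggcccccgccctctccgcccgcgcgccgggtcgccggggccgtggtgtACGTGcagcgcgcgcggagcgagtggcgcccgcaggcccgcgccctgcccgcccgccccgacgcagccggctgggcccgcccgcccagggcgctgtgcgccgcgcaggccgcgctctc
Pfkp: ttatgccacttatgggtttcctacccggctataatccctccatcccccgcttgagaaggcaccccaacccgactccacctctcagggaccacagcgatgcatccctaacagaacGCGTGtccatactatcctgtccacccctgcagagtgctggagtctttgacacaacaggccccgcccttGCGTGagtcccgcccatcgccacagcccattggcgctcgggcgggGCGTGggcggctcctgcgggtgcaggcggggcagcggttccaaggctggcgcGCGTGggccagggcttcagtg
Slc16a3: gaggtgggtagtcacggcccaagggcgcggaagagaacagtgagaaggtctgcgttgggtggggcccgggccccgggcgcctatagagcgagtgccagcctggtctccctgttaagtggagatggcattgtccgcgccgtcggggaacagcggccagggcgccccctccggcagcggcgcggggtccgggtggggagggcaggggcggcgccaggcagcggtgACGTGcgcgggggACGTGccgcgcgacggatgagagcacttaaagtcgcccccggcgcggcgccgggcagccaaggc
Egln3, a prolyl hydroxylase, held 1 match near the upstream end of its window, and Egln1, its main relative, held 2. Pfkp, the platelet-type phosphofructokinase, held 4 matches, all with the letters GCGTG, and Slc16a3, a lactate exporter, held 2 with the letters ACGTG. A match describes these letters and does not show that a factor binds there.

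The enzymes as a sum were abundant in every group, though single ones were low, such as Hk1 at 6.02 to 11.9 CPM in the main groups. In the comparisons of the 4 main groups most members past 2-fold were not enzymes. In VE cysts 5 of the 9 members that were lower in VE than in Epi cells were enzymes. The enzymes took 1.69% of the UMIs of these Epi cells. The 16 enzymes together took 1.31% of all UMIs in VE cells of BELAs, 1.00% in VE cells of VE cysts, 1.37% in Epi cells of BELAs and 1.28% in Epi cells of Epi cysts. Gapdh led with 4321, 3356.5, 4202 and 4604 CPM in the same order of groups. The 4 transporters summed to 1438.5, 1698, 764 and 616 CPM, again in this order. The 11 hypoxia targets summed to 889, 655, 783 and 509 CPM, so both BELA groups lay above the cyst group of their lineage. In VE cells this rested on Higd1a (377 against 221 CPM) and Bnip3 (282 against 195 CPM). Ndrg1 (57.7 against 96.6 CPM), Egln3 and Kdm3a had smaller CPM in VE cells of BELAs than of VE cysts, each by less than 2-fold. Pfkfb4, a kinase that sets the level of the glycolytic activator fructose 2,6-bisphosphate, was the 1 member below the mean level of 5 CPM that defined the expressed genes, at 1.17 to 2.99 CPM in the main groups. The highest copies among the enzymes are uncertain in level. Reads that map equally well to several genes are dropped by the counting, and Gapdh, Eno1, Pgk1, Pgam1, Ldha, Aldoa, Tpi1 and Pkm have near-identical copies elsewhere, of which Eno1b alone stood at 49.7 to 123 CPM.

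**Figure D1:**
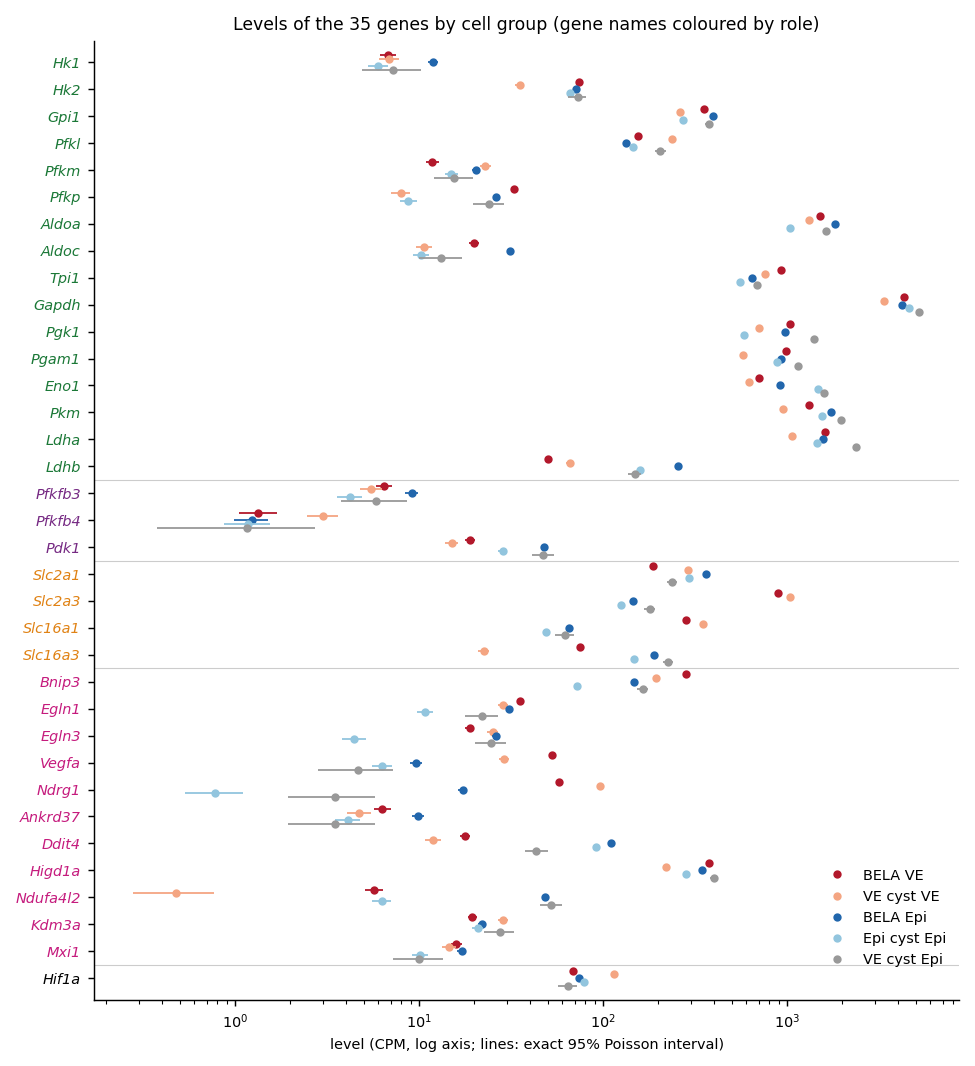
Levels in CPM (log axis) of the 35 genes, 1 row per gene and 1 colour per cell group, with gene names coloured by role. Points show the pooled level and lines the exact 95% Poisson interval. Most enzymes lie close together across groups, while Slc2a3, Slc16a1, Ndrg1, Vegfa, Ddit4 and Ndufa4l2 spread widely.

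Between the lineages of BELAs, VE cells carried more transcripts of the transporters Slc2a3 and Slc16a1 and of the hypoxia targets Vegfa and Ndrg1, and fewer of Slc16a3, Ldhb, Pdk1, Ddit4 and Ndufa4l2. A gene was called higher or lower where its ratio, with 5 CPM added to both levels, reached 2-fold. By this rule 4 of the 35 members were higher in VE than in Epi cells of BELAs, where 13.8% of the 9657 expressed genes were, and 5 were lower, where 8.62% were. The median log2 ratio was -0.11 over the members and -0.05 over all expressed genes. Counted as a set, the members therefore differed between the lineages about as often as other genes, and the contrast lay in which members they were.

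The glucose transporters divided by lineage. Slc2a3, a high-affinity glucose transporter, stood at 894 CPM (886 to 901) in VE cells of BELAs against 146 CPM (143 to 149) in their Epi cells, a ratio of 6.12 (5.99 to 6.25). Slc2a1, the widespread basal glucose transporter, stood at 187 CPM in VE against 364 CPM in Epi cells (log2 ratio -0.94), just short of the 2-fold rule. The monocarboxylate transporters, which carry lactate and pyruvate with protons, divided in the same way. Slc16a1, which works in uptake and release, was at 283 CPM in VE against 65.6 CPM in Epi cells, 4.32-fold higher (4.18 to 4.47). Slc16a3, known for lactate export from glycolytic cells, was at 74.6 against 189 CPM, 2.53-fold lower (2.44 to 2.62) in VE cells. Thus in both transporter pairs one gene was higher and its relative had fewer UMIs in VE cells.

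Among the 16 enzymes only Ldhb passed the rule in BELAs. This lactate dehydrogenase subunit, known from tissues that oxidise lactate, stood at 50.2 CPM in VE against 254 CPM in Epi cells, 5.07-fold lower (4.87 to 5.28). The other subunit gene Ldha was at 1600.4 against 1571 CPM and Gapdh at 4321 against 4202 CPM, close to equal in the lineages. Tpi1, triose phosphate isomerase, had the highest log2 ratio of the enzymes at 0.52, with 928 against 644 CPM. The lowest below Ldhb was Pfkm, the muscle-type phosphofructokinase, at -0.59, and the median of the enzymes was -0.07. Among the flux switches, Pdk1, a kinase that keeps pyruvate out of the mitochondrial oxidation path, was at 18.8 against 47.5 CPM, 2.52-fold lower (2.35 to 2.71), though its log2 ratio of -1.14 shrank to -0.80, short of the rule, with 20 CPM added. Pfkfb3, which makes the same activator as Pfkfb4, stood at 6.46 against 9.11 CPM.

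The hypoxia targets did not move together between the lineages. Vegfa, the growth factor for blood vessels, stood at 52.6 CPM in VE against 9.58 CPM in Epi cells, 5.49-fold higher (5.05 to 5.98). Ndrg1, a stress-responsive gene linked to differentiation, stood at 57.7 against 17.3 CPM, 3.34-fold higher (3.13 to 3.57). Ddit4, an inhibitor of mTORC1 signaling, was at 17.8 against 110.0 CPM, 6.20-fold lower (5.79 to 6.63) in VE cells. Ndufa4l2, a mitochondrial protein gene that lowers respiration in hypoxia, was at 5.67 against 48.6 CPM, 8.58-fold lower (7.63 to 9.66). Bnip3, which takes part in removing mitochondria, had a log2 ratio of 0.91 with 282 against 148 CPM, just short of the rule. The other 6 targets had log2 ratios between -0.39 (Ankrd37 and Egln3) and 0.17 (Egln1), with the histone demethylase gene Kdm3a at -0.15, the MYC antagonist gene Mxi1 at -0.08 and Higd1a at 0.14 among them, so the list held equal numbers past the rule in each direction and a median of -0.08.

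The VE cyst library held 48 Epi cells, in which 1 UMI corresponds to 0.232 CPM, and it shares no cells with the BELAs. The members that separated the lineages of BELAs mostly separated these cells in the same direction. Slc2a3 was at 1035 CPM in VE and 179 CPM in Epi cells of VE cysts, and Slc16a1 at 349 and 61.8 CPM. Slc16a3 was at 22.5 CPM in VE and 226 CPM in Epi cells, 10.0-fold lower (9.13 to 11.04). Vegfa and Ndrg1 stood at 29.1 and 96.6 CPM in VE cells against 4.64 and 3.48 CPM in Epi cells. All 9 members past the rule in BELAs were past it in the same direction here. In addition Pfkp, Eno1, Pkm and Ldha were at least 2-fold lower in VE cells of VE cysts, with log2 ratios between -1.05 and -1.35. The counts were 4 members higher, beside 19.9% of expressed genes, and 9 lower, beside 11.5%, and the 48 cells had escaped a hand picking against Epi cores.

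Isoform choice gave the same picture as shares of a gene family, which do not depend on the total UMIs of a group. Slc2a3 made up 82.7% (82.38 to 82.99%) of the UMIs of the 2 glucose transporter genes in VE cells of BELAs against 28.6% (28.2 to 29.1%) in their Epi cells. In the cysts its share was 78.1% in VE cells of VE cysts, 43.2% in their Epi cells and 30.1% in Epi cells of Epi cysts. Both VE groups thus lay at 78.1% or more and all 3 Epi groups at 43.2% or less, outside each other's counting intervals. Slc16a1 made up 79.2% of the pair with Slc16a3 in VE cells of BELAs against 25.8% in their Epi cells, and 93.9% in VE cells of VE cysts against 21.5% in their Epi cells. Its share was 25.0% in Epi cysts. The VE cells of BELAs therefore lay below those of VE cysts in this pair, outside the counting intervals, while the 3 Epi groups lay between 21.5% and 25.8%.

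Lactate dehydrogenase and phosphofructokinase, the enzyme of the main regulated step, varied on smaller scales. The Ldhb share was 3.04% in VE cells of BELAs against 13.9% in their Epi cells, and 9.80% in Epi cysts, but in VE cysts it was 5.85% in VE (5.62 to 6.08%) and 5.88% in Epi cells (5.45 to 6.34%), with overlapping intervals. The Pfkp share was larger in BELAs than in the cysts of either lineage. It was 16.5% (15.8 to 17.2%) in VE cells of BELAs against 2.95% (2.62 to 3.31%) in those of VE cysts, and 14.60% (13.998 to 15.22%) in Epi cells of BELAs against 5.18% (4.67 to 5.73%) in those of Epi cysts. Within VE cysts it was 9.80% (8.07 to 11.8%) in Epi cells, above the 2.95% of VE cells. Pfkl, the liver-type gene, made up most of the family in each group with 74.1% to 88.6%. Hk2 held 83.6% to 91.7% of the UMIs of Hk1 and Hk2 together, and Aldoc between 0.799% and 1.69% of those of Aldoa and Aldoc. A further gene of the hexokinase family, Hkdc1, is not in these shares and stood at 46.7 CPM in VE cells of BELAs, beside 74.5 CPM of Hk2, at 50.2 CPM in VE cysts, beside 35.3 CPM of Hk2, and at 0.610 CPM or less in the Epi groups. Egln3 held 34.6% of the pair with Egln1 in VE cells of BELAs against 46.6% in those of VE cysts, and 45.8% in Epi cells of BELAs against 29.2% in those of Epi cysts, so that the lineages went in opposite directions between aggregates.

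**Figure D2:**
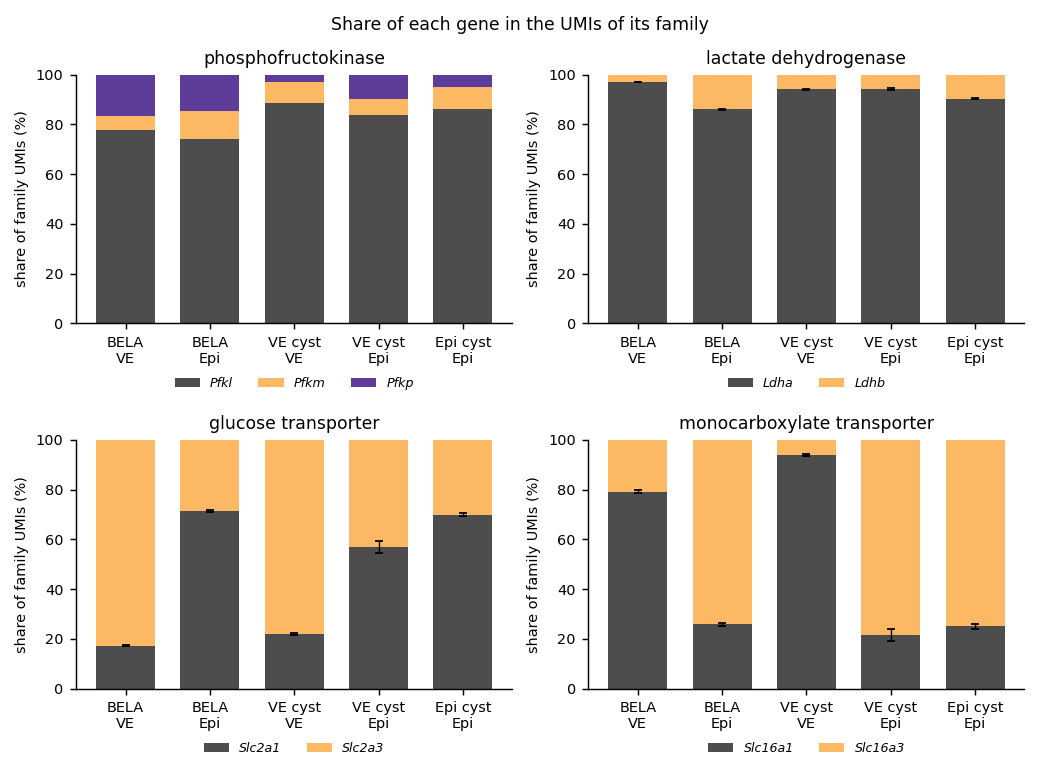
Share of each gene in the UMIs of its family (%, stacked to 100) in 4 families and 5 cell groups. Error bars, drawn for the families of 2 genes, are exact 95% binomial intervals (Clopper-Pearson). Slc2a3 and Slc16a1 lead their pairs in VE cells (78.1% and more) and not in Epi cells, and the Pfkp share is larger in both BELA groups than in the cyst groups.

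Epi cells of BELAs, which grow inside a VE layer, carried more of most members than the matrigel-grown Epi cysts. Of the 35 members 6 were at least 2-fold higher in Epi cells of BELAs, where 1.11% of expressed genes were, and 0 were lower, where 1.09% were. The 6 were Pfkp, Aldoc, Egln1, Egln3, Ndrg1 and Ndufa4l2. The log2 ratio was positive for 31 of 35 members, with a median of 0.37 against -0.03 over all expressed genes, and for 11 of the 11 hypoxia targets, with a median of 0.71. It was positive for 45.4% of all expressed genes. Other lists were also one-sided, with 100% of 10 dissociation stress genes and 85% of 20 other glycolytic genes. Of 7 pentose phosphate genes 42.9% had positive log2 ratios. The Epi cells of BELAs in this comparison are the same ones that the VE cells were set against above. The groups also differed in markers of other cell types. The 4 VE markers of the calling rule summed to 23.2 CPM in Epi cells of BELAs against 2.96 CPM in Epi cysts, beside 2842 CPM in VE cells of BELAs, and 5 mesoderm genes summed to 1.05 against 20.7 CPM, mostly from T with 0.347 against 19.6 CPM. The neural genes summed to 25.8 against 40.7 CPM. Their part in the ratios was not tested.

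The largest ratios belonged to hypoxia targets of low level. Ndufa4l2 stood at 48.6 CPM (47.0 to 50.2) in Epi cells of BELAs against 6.26 CPM (5.52 to 7.08) in Epi cysts, 7.76-fold higher (6.84 to 8.85). Ndrg1 stood at 17.3 CPM against 0.783 CPM, which rests on 32 UMIs in Epi cysts, a ratio of 22.1 (15.5 to 32.4). Egln3 was at 26.2 against 4.45 CPM, 5.87-fold higher (5.04 to 6.88), and Egln1 at 31.0 against 10.8 CPM, 2.87-fold higher (2.59 to 3.19). Both oxygen sensors of the list were therefore higher in Epi cells of BELAs than in Epi cysts. With 20 CPM added in place of 5, Ndufa4l2 alone stayed past 2-fold, and the other 5, which stood at 31.2 CPM or less in both groups, did not. Bnip3 had a log2 ratio of 0.99 (148 against 72.1 CPM), just short of the rule, and was past it when each cell counted equally or was thinned to one depth. The remaining 6 targets lay between 0.07 (Kdm3a) and 0.71 (Ankrd37).

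The enzymes were less far apart. Pfkp was at 26.3 against 8.73 CPM, 3.01-fold higher (2.69 to 3.38) in Epi cells of BELAs, and the brain-type aldolase gene Aldoc at 31.2 against 10.2 CPM, 3.04-fold higher (2.74 to 3.39). Aldoa, the main aldolase, was at 1812 against 1042 CPM (log2 ratio 0.80) and Pgk1, phosphoglycerate kinase, at 976 against 584 CPM (0.74), neither past the rule. Eno1, enolase, ran the other way with 916 against 1473 CPM (log2 ratio -0.68). The remaining 11 enzymes lay between -0.13 (Gapdh) and 0.67 (Ldhb), with Hk1, the widespread hexokinase, at 0.62. The median over the enzymes was 0.28. Among the flux switches Pfkfb3 had 0.62 and Pdk1 0.65, and all 4 transporters had positive log2 ratios between 0.21 and 0.38.

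The 48 Epi cells of VE cysts give a further reading, although they too sat beside VE cells and came from another library. Ndufa4l2 stood in them at 52.2 CPM, Egln3 at 24.6 CPM and Pfkp at 23.9 CPM, within the counting intervals of the Epi cells of BELAs or overlapping them. Egln1 was at 22.1 CPM and Aldoc at 13.2 CPM, between the other Epi groups. Ndrg1 was at 3.48 CPM on 15 UMIs and Ddit4 at 43.4 CPM, so these did not follow BELAs.

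VE cells of BELAs and of VE cysts differed in fewer members. Only Pfkp and Slc16a3 were at least 2-fold higher in VE cells of BELAs (2 of 35, beside 1.51% of expressed genes) and 0 were lower (beside 2.67%). Pfkp stood at 33.0 CPM against 7.95 CPM in VE cysts, 4.15-fold higher (3.66 to 4.72), and Slc16a3 at 74.6 against 22.5 CPM, 3.32-fold higher (3.08 to 3.58). Pfkp was thus the 1 member past the rule in both lineages with 5 CPM added, but with 20 CPM added it was past it in neither, with log2 ratios of 0.92 in VE and 0.69 in Epi cells. Hk2, the inducible hexokinase, with 74.5 against 35.3 CPM (log2 ratio 0.98), and Ndufa4l2, with 5.67 against 0.479 CPM on 17 UMIs (0.96), lay just short of it, and both were past it when each cell counted equally, after thinning, or when the median ratio of all genes was set to 0.

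As a list, 12 of the 16 enzymes had positive log2 ratios, with a median of 0.39 against -0.11 over all expressed genes. Of all expressed genes 38.9% had positive log2 ratios. Pgam1, phosphoglycerate mutase, was at 984 against 573 CPM (0.77) and Ldha at 1600.4 against 1058 CPM (0.59), both below the rule. Pfkl went the other way, at 155 against 238 CPM (-0.60), as did Pfkm, at 11.8 against 22.9 CPM (-0.73). The hypoxia targets had a median of 0.27, and the flux switches lay between -0.33 (Pfkfb4) and 0.25 (Pdk1). The other 3 transporters had negative log2 ratios, Slc2a1 -0.62 (187 against 291 CPM), Slc16a1 -0.30 and Slc2a3 -0.21, and so did the targets Kdm3a (-0.45) and Egln3 (-0.34). Vegfa and Higd1a, a small mitochondrial protein gene, both had log2 ratios of 0.76, while Ndrg1 had -0.70 with 57.7 against 96.6 CPM. Epi genes were also higher in the VE cells of BELAs. The 6 Epi genes outside the calling rule summed to 799.9 CPM against 296 CPM in VE cysts, with Utf1 at 246 against 12.5 CPM, and the 4 of the rule to 38.6 against 18.6 CPM. Slc16a3, at 189 CPM in Epi cells of BELAs, is itself a gene with more UMIs in Epi cells, and the part of Epi genes in its ratio was not tested. These groups differed in ribosomal protein UMIs (21.8% in BELAs against 18.4%) and mitochondrial UMIs (4.77% against 5.57%), whose part in the ratios was tested only as a change of the total. Without both sets of genes in the total, 4 members were higher.

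**Figure D3:**
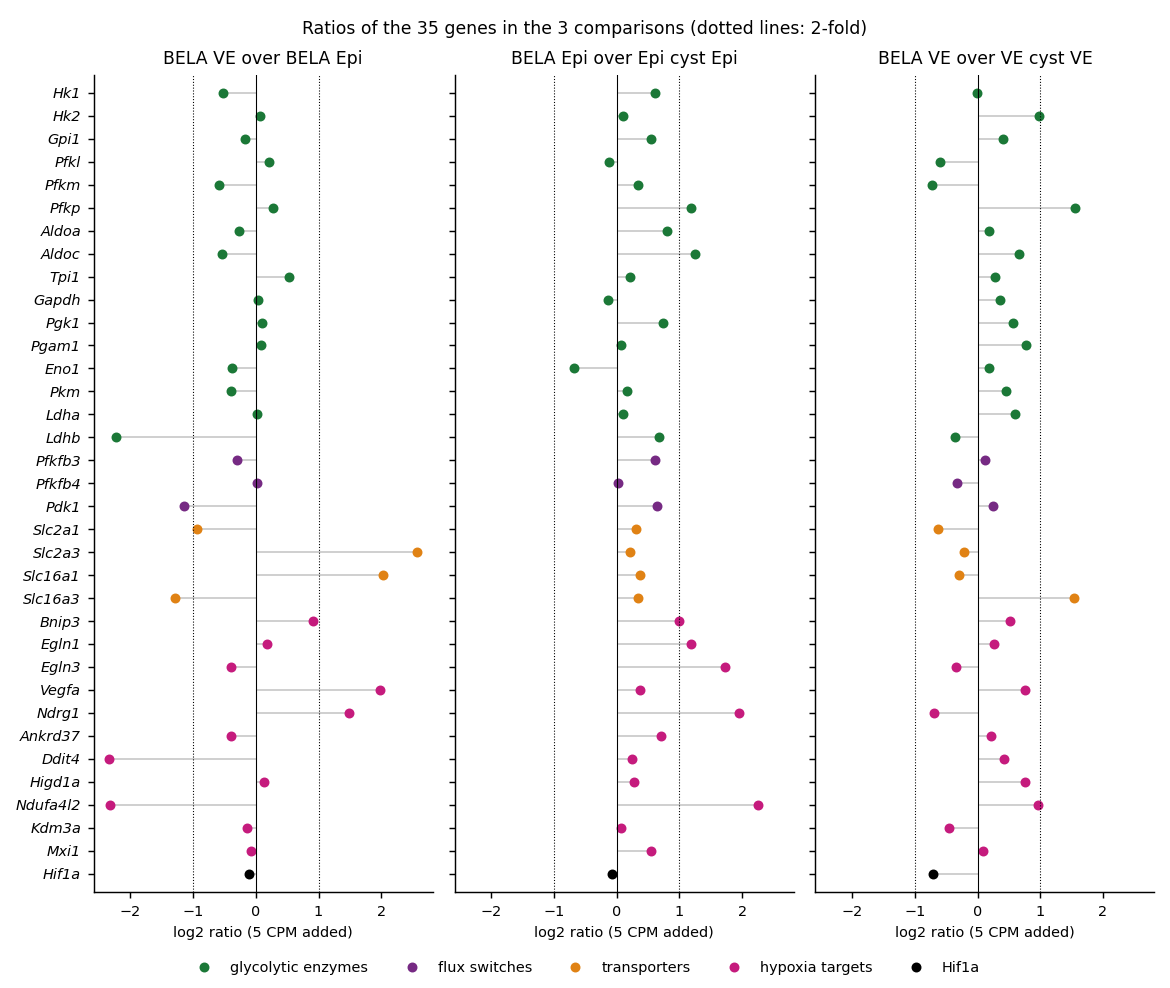
Log2 ratios with 5 CPM added for the 35 genes in VE over Epi cells of BELAs, Epi cells of BELAs over Epi cysts, and VE cells of BELAs over VE cysts. Dotted lines mark 2-fold and colours mark roles. Points scatter to both sides in the lineage comparison, while 31 of 35 lie above 0 in the Epi comparison.

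Hif1a itself passed the rule in none of these comparisons. It was at 68.3 CPM in VE cells of BELAs, 115 CPM in VE cells of VE cysts, 74.4 CPM in Epi cells of BELAs and 78.9 CPM in Epi cysts. Its relative Epas1, which encodes the other main oxygen-regulated subunit, was found mainly in VE cells, with 39.7 CPM in VE cells of BELAs against 231 CPM in VE cysts and at most 2.09 CPM in the Epi groups. Cited2, a HIF-induced gene whose product competes with HIF for its coactivator, was at 407 CPM in VE against 40.9 CPM in Epi cells of BELAs, and the level in Epi cells of BELAs was 2.40-fold lower (2.29 to 2.52) than the 98.3 CPM of Epi cysts. Of 8 genes of HIF control, 2 were higher in VE than Epi cells of BELAs.

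Further hypoxia targets outside the list numbered 24, of which 16 were expressed. In VE over Epi cells of BELAs 4 were higher and 0 lower, namely the collagen-modifying enzymes P4ha1 (361 against 27.9 CPM), P4ha2 (68.4 against 14.02 CPM) and Plod2 (344 against 36.5 CPM), and Wsb1. In Epi cells of BELAs over Epi cysts 2 were higher and 0 lower, Ero1l, an oxidase of protein folding (58.3 against 15.02 CPM, 3.88-fold), and P4ha1 (27.9 against 10.0 CPM). In VE cells of BELAs over VE cysts P4ha1 and Plod2 were lower, at 361 against 756 CPM and 344 against 877 CPM. The collagen enzymes thus ran against Pfkp and Slc16a3 in that comparison. The median log2 ratios over all 24 further targets were -0.01, 0.18 and -0.02 in the 3 comparisons.

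The pooled levels hid a wide spread between cells of BELAs. For this, every cell was thinned to 40000 UMIs, which left 514 VE and 801 Epi cells of BELAs, 473 VE cells of VE cysts and 592 Epi cells of Epi cysts. The summed UMIs of the 11 hypoxia targets had a median of 21 per cell in Epi cells of BELAs and 19 in Epi cysts, but a 95th percentile of 102 against 32 and a highest cell of 157 against 76. In VE cells the medians were 29 in BELAs and 25 in VE cysts, the 95th percentiles 83.4 and 46 and the highest cells 150 and 79. The typical cell of each lineage was thus close in BELAs and cysts, and the upper part of the distribution was not. The variance beyond counting noise, as squared coefficient of variation, was 0.766 in Epi cells of BELAs against 0.0828 in Epi cysts, and 0.404 in VE cells of BELAs against 0.138 in VE cysts.

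Of 801 Epi cells of BELAs, 223 (27.8%, 24.8 to 31.1%) lay above the 95th percentile of Epi cysts and 81 (10.1%, 8.11 to 12.4%) above the highest Epi cyst cell. Of 514 VE cells of BELAs, 137 (26.7%, 22.9 to 30.7%) lay above the 95th percentile of VE cysts and 30 (5.84%, 3.97 to 8.23%) above the highest cell. These counts describe cells of 1 library each. In VE cells they depended on whether Higd1a and Bnip3, the most abundant targets, were counted. These held means of 15.2 and 11.7 of the 36.6 target UMIs per thinned VE cell of BELAs. A sum without them is smaller and noisier, and the part of this in the counts that follow was not tested. When both were left out of the sum, a choice made after the data were seen, 41 of 514 VE cells (7.98%) lay above the 95th percentile and 2 (0.389%) above the highest cell. In Epi cells 27.2% lay above the 95th percentile and 6.74% above the highest cell after the same change.

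**Figure D4:**
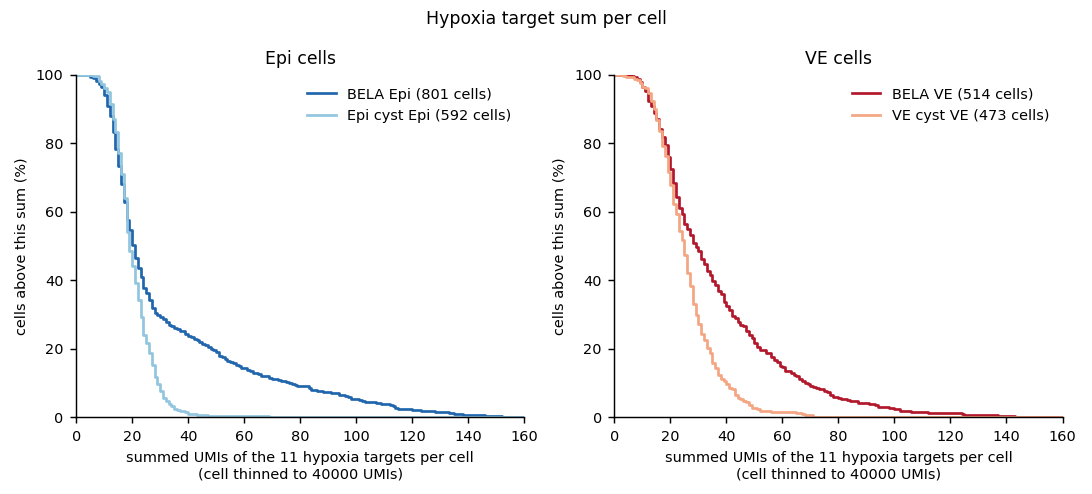
Percent of cells (vertical axis) whose summed UMIs of the 11 hypoxia targets exceed the value on the horizontal axis, after thinning to 40000 UMIs, for Epi cells (left) and VE cells (right). The curves of BELAs and cysts run close at low sums and part at high sums, where 10.1% of Epi cells of BELAs exceed 76 UMIs, the highest Epi cyst cell.

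Single genes showed the same uneven distribution. Ndufa4l2 was found in 40.8% (37.4 to 44.3%) of thinned Epi cells of BELAs against 17.7% (14.7 to 21.1%) of Epi cyst cells and 1.06% of VE cells of VE cysts, where it is lowest (unthinned 50.2%, 25.6% and 1.04%, at median depths of 78973, 60131 and 56914 UMIs). Its median in Epi cells of BELAs was 0 UMIs, its 95th percentile 12 and its maximum 35, with a Fano factor (variance over mean, 1 for counting noise) of 9.79 against 1.56 in Epi cysts. Ndrg1 was found in 26.2% of the Epi cells of BELAs, with up to 36 UMIs in a cell, against 2.87% of Epi cyst cells, with at most 2. Both genes were thus found in a minority of thinned Epi cells of either aggregate, which alone does not set BELAs apart. The highest counts per cell were 35 against 6 UMIs for Ndufa4l2 and 36 against 2 for Ndrg1, beside the higher pooled levels in BELAs. Slc2a3 had a Fano factor of 14.7 in Epi cells of BELAs, with a median of 3 and a maximum of 154 UMIs, against 4.41 in Epi cysts, with a median of 4 and a maximum of 78. Its pooled level therefore differed little between these groups (146 against 126 CPM), while its spread did.

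Cells with many hypoxia target UMIs also held many enzyme UMIs in BELAs. Across cells, the Pearson correlation of the log sums was 0.69 in 801 Epi cells of BELAs against 0.30 in 592 Epi cyst cells, and 0.75 in 514 VE cells of BELAs against 0.48 in 473 VE cells of VE cysts. The cells of a group share a library, so these values describe it and carry no p-value. The target sum varied less beyond counting noise in cysts (0.0828 in Epi and 0.138 in VE cells) than in BELAs (0.766 and 0.404). A smaller spread leaves less to correlate, and its part in these differences was not tested. The log sum of a cell was correlated with its depth before thinning at -0.14 in Epi and -0.11 in VE cells of BELAs, with little relation in either. The enzyme sums had medians of 517 against 499 UMIs in Epi cells and 512.5 against 385 in VE cells. Of 514 VE cells of BELAs, 198 (38.5%, 34.3 to 42.9%) had an enzyme sum above the 95th percentile of VE cysts and 46 (8.95%, 6.63 to 11.8%) above their highest cell. Of 801 Epi cells of BELAs, 111 (13.9%, 11.5 to 16.4%) lay above the 95th percentile of Epi cysts and 14 (1.75%, 0.959 to 2.92%) above their highest cell.

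**Figure D5:**
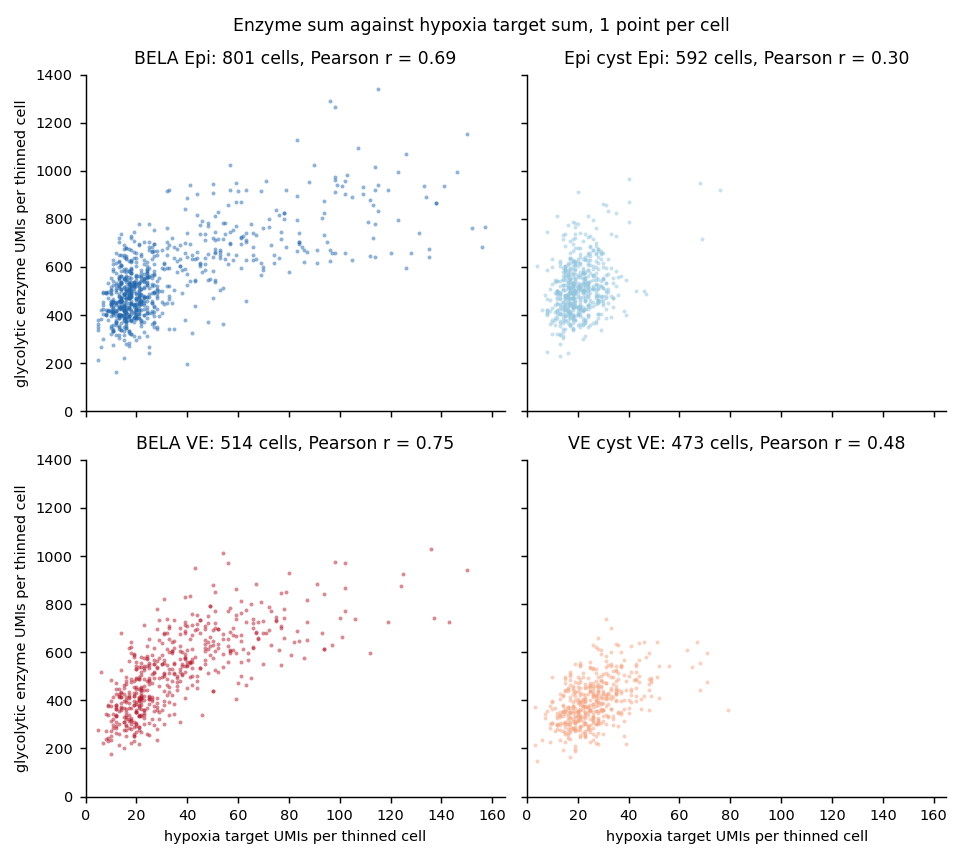
Summed UMIs of the 16 glycolytic enzymes against those of the 11 hypoxia targets, 1 point per cell thinned to 40000 UMIs, in 4 cell groups. The points of both BELA groups extend to high sums of both lists (r = 0.69 and 0.75 on log values), and those of both cyst groups form compact clouds (0.30 and 0.48).

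The members did not all take part in this variation. In Epi cells of BELAs the genes most correlated with the target sum, each target being left out of its own sum, were Aldoa and Ndufa4l2 (both 0.77), Pgk1 and Bnip3 (both 0.69) and Gpi1, glucose phosphate isomerase (0.68). Gapdh stood apart at -0.06, although it is the most abundant enzyme, and Slc2a1 at 0.10 and Slc16a1 at -0.01 were also unrelated. In VE cells of BELAs Pgk1 led with 0.75, followed by Slc16a3 (0.66), and Gapdh was at 0.54 while Slc16a1 was at -0.20. Hif1a mRNA was at -0.30 in Epi and -0.28 in VE cells of BELAs, against 0.03 in Epi cysts and 0.07 in VE cysts. Over all genes with a mean of at least 0.5 UMIs per thinned cell, 27 of 6654 reached 0.5 in Epi cells of BELAs, 8 of them members, and 19 of 6908 in VE cells, 10 of them members, while 0 did in either cyst group. The members that entered numbered 21 in Epi and 20 in VE cells of BELAs. Members and other genes were not matched for level, whose part in these counts was not tested. The part of the smaller spread of the target sum in cysts was not tested either. The hypoxia targets themselves are not in these counts.

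The genes outside the list that varied most closely with the target sum in Epi cells of BELAs were Anxa2 (0.78), Ero1l (0.72), Bsg (0.68), which encodes the partner that brings the monocarboxylate transporters to the membrane, Espn (0.68) and Fam162a (0.68). The lowest were Hspd1 (-0.59), a mitochondrial chaperone gene, and Nme1 (-0.56). In VE cells of BELAs Fam162a (0.67), Prelid2 (0.60) and Bsg (0.59) led. Other measures moved with the sum as well. The 10 dissociation stress genes were correlated with it at 0.47 in Epi cells of BELAs against 0.07 in Epi cysts, and 0.19 in VE cells of BELAs against 0.26 in VE cysts. All 10 were detected in each group, with summed levels of 258 against 159 CPM in Epi cells and 397 against 409 CPM in VE cells, and Egr1 and Jun were at least 2-fold higher in Epi cells of BELAs than in Epi cysts. Between the lineages of BELAs, Atf3 (29.0 against 5.27 CPM), Jun (151 against 53.6 CPM) and Junb (47.9 against 11.04 CPM) of this list were higher in VE cells. Ribosomal protein UMIs were correlated at 0.35 in Epi and 0.33 in VE cells of BELAs, and the 4 Epi markers of the calling rule at -0.32 in Epi cells of BELAs. The part of dissociation, ribosomal content or cell state in the spread was not tested. Leaving out cells with more than 10% of their marker UMIs from the minor lineage changed the 10.1% of Epi cells above the highest cyst cell to 9.27%. There were 91 such cells in BELAs against 4 in Epi cysts and 6 in VE cysts. Their part in the Fano factors and correlations was not tested.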

How the data were processed

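Single-cell 3′ mRNA libraries (10x Genomics) were analysed from 3 aggregate types, 1 library each. The deposited UMI counts were made by the authors with Cell Ranger 4.0.0 (submitters' notes) on the mouse build mm10, and each library was deposited as a matrix of raw counts per gene and barcode. Cell Ranger drops reads that map to several genes, so genes with near-identical copies are undercounted.

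Barcodes with 4000 or more detected genes and no more than 10% mitochondrial UMIs were kept and assigned to VE or Epi by 4 markers each. No doublet caller was run. Cells with more than 10% of the UMIs of the 8 markers from the minor lineage were left out as an alternative. Counts were pooled per library and lineage (39793263 to 126625916 UMIs per library over kept cells) and scaled to CPM. Expressed genes had a mean of at least 5 CPM over the 4 main groups. Ratios used 5 CPM added to both levels and a 2-fold rule, chosen with no replicate error to set it by. Intervals are exact Poisson, exact conditional (ratios) and Clopper-Pearson (shares) at 95%. For spread and correlations each cell was thinned to 40000 UMIs (seed 1). The steps were tested on simulated data. All 35 members were reported by role. Genes of the other metabolic and stress lists were named where they passed the 2-fold rule in one of the 3 comparisons. Exceptions were Pdha1 and Dlat, named as examples that did not pass, and Fam162a, named for its correlation. Marker lists were given as sums with examples. The genes of highest and lowest correlation outside the 35 members were chosen after their values were seen. The members and lists were chosen with earlier results of these data known. Alternatives were 1 or 20 CPM added, equal weight per cell, thinning to 40000 or 20000 UMIs, a looser cell filter (3000 genes, 20% mitochondrial UMIs), no mixed-marker cells, a total without mitochondrial and ribosomal protein genes, a median ratio set to 0, other filters on low genes and, added after the data were seen, a target sum without Higd1a and Bnip3. Python 3.11.15 with numpy 2.4.6, pandas 2.3.3, scipy 1.17.1 and matplotlib 3.10.9 was used.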

Additional observations from a re-analysis of the deposited data

Results flagged for a closer look

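Ndrg1 differed between BELAs and cysts in opposite directions in the lineages. Its log2 ratio, with 5 CPM added, was 1.94 in Epi cells of BELAs over Epi cysts (17.3 against 0.783 CPM) and -0.70 in VE cells of BELAs over VE cysts (57.7 against 96.6 CPM). With 1 library per aggregate type the difference between the lineages was not tested. Of 9657 expressed genes, 66 (0.683%) went at least 1.5-fold in opposite directions in these comparisons.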

How the results depend on the processing

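No named member past the 2-fold rule changed direction under the alternatives run. Of 136 recomputed log2 ratios of these members, however, 76 were counted as moved and 60 as unchanged. The largest move was 1.41, for Ndrg1 in Epi cells of BELAs over Epi cysts with 1 CPM added. Of 48 recomputed medians 15 were counted as moved and 33 as unchanged. The number of members at least 2-fold higher in Epi cells of BELAs than in Epi cysts, 6 as reported, was 1 with 20 CPM added, and Pdk1 was no longer past the rule between the lineages of BELAs. The number higher in VE cells of BELAs than in VE cysts, 2 as reported, was 4 with each cell counting equally, with cells thinned to 40000 UMIs, with a total without mitochondrial and ribosomal protein genes, with 1 CPM added and with the median of all genes set to 0 (Hk2 and Ndufa4l2 joined each time), and 1 with 20 CPM added (Pfkp dropped out). The median log2 ratio of the hypoxia targets in Epi cells of BELAs over Epi cysts, 0.71 as reported, was 1.03 with 1 CPM and 0.31 with 20 CPM added, and that in VE over Epi cells of BELAs, -0.08, was 0.02 with each cell counting equally. The percentages of expressed genes past the rule, 13.8% higher and 8.62% lower in VE over Epi cells of BELAs, were 6.25% and 4.05% with no filter on low genes, and those of BELAs over cysts lay between 0.548% and 1.35%. Of all genes past the rule, 50.5% were higher in Epi cells of BELAs than in Epi cysts, against 63.7% with 1 CPM and 37.9% with 20 CPM added, and 36.1% were higher in VE cells of BELAs than in VE cysts, against 52% with the median set to 0. The total without mitochondrial and ribosomal protein genes moved the median of all genes in VE over Epi cells of BELAs to -0.15. Of 144 recomputed isoform shares 125 stayed within their interval, and the largest move was 5.81 points, for Pfkfb3 in VE cells of VE cysts after thinning. No paired analysis was possible because each type of aggregate has 1 library. Low members are limited by depth, since 1 UMI is 0.0139 to 0.0282 CPM in the main groups and 0.232 CPM in the 48 Epi cells of VE cysts.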

Other observations

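Of 10 genes of pyruvate entry and oxidation, 8 of them expressed, 2 were at least 2-fold higher and 1 lower in VE than in Epi cells of BELAs. The subunits of the mitochondrial pyruvate carrier, Mpc1 and Mpc2, stood at 77.9 and 61.4 CPM in VE cells of BELAs against 16.99 and 19.1 CPM in their Epi cells, and Pdk3, like Pdk1 a kinase that inhibits pyruvate oxidation, stood at 8.46 against 29.5 CPM. Genes of the pyruvate dehydrogenase complex did not pass the rule, among them Pdha1 (81.3 against 88.3 CPM) and Dlat (46.8 against 65.7 CPM), and 0 of the 10 passed the rule in BELAs over cysts of either lineage. Among 20 other glycolytic genes, of which 7 were expressed, Hkdc1 (46.7 against 0.610 CPM) and Pgm2 (42.9 against 11.3 CPM) were higher and the muscle-type enolase Eno3 (3.01 against 17.8 CPM) lower in VE than in Epi cells of BELAs. The liver-type glucose transporter Slc2a2, below the mean of 5 CPM that defined expressed genes, was at 9.37 against 0.0555 CPM. Again 0 passed the rule in BELAs over cysts.

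Of 7 genes of the pentose phosphate pathway, Rpia was higher in VE than in Epi cells of BELAs (19.5 against 6.56 CPM) and lower in VE cells of BELAs than of VE cysts (19.5 against 45.2 CPM). Of 11 targets of ATF4, a factor of the amino acid and unfolded protein response, Chac1 (2.24 against 12.1 CPM) and Psat1 (53.1 against 165.1 CPM) were lower in VE than in Epi cells of BELAs. In VE cells of BELAs over VE cysts Asns was higher (118 against 54.1 CPM) and Psat1 lower (53.1 against 128 CPM). The list summed to 717 CPM in Epi cells of BELAs against 911 CPM in Epi cysts, opposite to the order of the hypoxia targets.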
